A study of Mus musculus with 48 samples.

Results

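The Cyp4a genes encode cytochrome P450 enzymes of the endoplasmic reticulum that hydroxylate the terminal (omega) carbon of fatty acids. The omega-hydroxy acids are oxidised further to dicarboxylic acids, which are shortened in peroxisomes. Some members also convert arachidonic acid to the vasoactive lipid 20-HETE, and Cyp4a12 is known in mice as a form expressed more in males than in females. PPARα (peroxisome proliferator-activated receptor α) is a nuclear receptor that binds fatty acids and fibrate drugs and switches on genes of fatty acid oxidation. Cyp4a10 and Cyp4a14 are among its classical targets in rodent liver.

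The 6 genes of the family that were followed are Cyp4a10, Cyp4a14, Cyp4a31, Cyp4a32, Cyp4a12a and Cyp4a12b. Every probe that the array annotation gives one of these names was taken. This gave 8 probes for 5 of the 6 genes, out of 33323 probes (22029 gene names) that were bright enough to be tested among 56605 on the array. All 8 probes passed the filter on brightness. The filter asked for a signal well above background on 4 of the 8 arrays of at least 1 group, so a gene bright in a single group could pass. Cyp4a32 had no probe of its own name, but all 3 Cyp4a10 probes also list its transcript as a target. Its RNA cannot be told apart from that of Cyp4a10 here.

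The measurements are 1-colour microarrays of whole liver from 48 male mice, 1 array per mouse, in 6 groups of 8. WT mice were C57BL/6J bought from a breeder. Pparα hep-/- mice carry floxed Pparα and an albumin-Cre transgene, so the gene is deleted in hepatocytes and kept in the other liver cells. Pparα-/- mice lack it in the whole body. Both mutant lines were bred in-house, so genotype and origin of the animals cannot be told apart. Each genotype received a control diet (CTRL) or a high-fat diet (HFD) with 60% of its calories as fat for 12 weeks by the labels, to an age of 20 weeks, and all mice were kept at thermoneutrality. The study's methods give a shorter time on the diet, which was not settled here. The labels describe each array as a separate mouse. In whole tissue, fewer cells of a type and less RNA per cell cannot be told apart.

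The probes are shown because which transcripts they read decides how the values can be used. All lie on chromosome 4 of the mouse build mm9, as the array annotation places them. The 3 probes of 60 bases that follow stand for genes that rose with HFD in WT mice, and they do not align with each other. The first is the most 3′ of the Cyp4a10 probes (chr4:115205268-115205756, plus strand, from base 1528 of the transcript), and its 60 bases span 489 bases of the genome. The second lies further 5′ in Cyp4a10 (chr4:115198463-115198522, from base 1193). The third is near the 5′ end of Cyp4a14 (chr4:115168609-115168668, minus strand, from base 78).
Cyp4a10 A_52_P257774: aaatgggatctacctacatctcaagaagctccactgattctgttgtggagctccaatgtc
Cyp4a10 A_55_P2092030: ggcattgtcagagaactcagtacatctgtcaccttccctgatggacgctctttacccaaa
Cyp4a14 A_66_P118338: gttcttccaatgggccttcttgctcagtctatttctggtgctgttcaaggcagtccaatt

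The next pair of probes, one named for Cyp4a10 (chr4:115197445-115197926) and one for Cyp4a31 (chr4:115242872-115242931), reads the same part of both transcripts. The capitals mark the bases that are identical in the stretch of 26 bases where the probes align, 22 of 26 or 84.6%. The Cyp4a31 probe also lists the Cyp4a10 transcript as a target. Neither is therefore a measure of 1 gene only.
Cyp4a10 A_52_P6588: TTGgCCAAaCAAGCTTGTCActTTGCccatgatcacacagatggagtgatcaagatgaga
Cyp4a31 A_55_P2024033: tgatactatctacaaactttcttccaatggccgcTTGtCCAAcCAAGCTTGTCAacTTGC

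The last 3 probes lie in the last part of their transcripts, and 30 bases of each are given. They are the probe that lists only Cyp4a31 (chr4:115251553-115251612, from base 2441), the Cyp4a12a probe (chr4:115005258-115005317, from base 2259) and the probe that lists only Cyp4a12b (chr4:115111580-115111639, from base 2335). The Cyp4a12a probe also lists Cyp4a12b. Capitals mark AATAAA, the signal that precedes the polyadenylation site, which was found in 2 of the 8 probes.
Cyp4a31 A_55_P2050628: ccctcctttctgcAATAAAggtccaagtgt
Cyp4a12a A_55_P2043083: atgcatatctgaaagagccaattttcaacc
Cyp4a12b A_55_P2152607: catcttccccacAATAAAgttcataatgtg

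Where a gene had several probes, the brightest stands for it (A_52_P257774 for Cyp4a10 and A_55_P2050628 for Cyp4a31), and the others are given where they were compared. Levels are normalised log2 signals and are compared only within a probe, since the brightness of different probes cannot be ranked. Differences are log2 fold changes from a single model over all 48 arrays (limma), and a gene was called at an adjusted p of 0.05 or less over all 33323 tested probes. The array median signal was 56 to 91 against a local background of 20 to 36, and no member spot was saturated. Weights that the fit gave the arrays ran from 0.189 to 2.53, so poorly fitting arrays counted less.

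Over all other probes, 7 of the 48 arrays resembled another group more than their own. WT HFD mice 1 and 2 were closest to WT CTRL, WT CTRL mouse 7 to WT HFD, and Pparα-/- CTRL mouse 2 to Pparα-/- HFD. WT HFD mouse 6, WT CTRL mouse 6 and Pparα hep-/- CTRL mouse 1 were closest to Pparα hep-/- HFD. These mice were kept, and values without them are given where a result rests on them. Markers of the labelled tissue were present. The mean log2 signal of 10 hepatocyte markers had group medians of 16.5 to 16.7, and that of the 3 kidney proximal tubule markers bright enough to be tested was 5.63 to 6.86 in all mice. Where the 2 probes for Ppara lie relative to the deleted parts of the gene was not examined, so their signals are no check of the deletions. Ppara signal at the brighter probe was lower than in WT on CTRL by 0.65 in Pparα-/- and by 0.42 in Pparα hep-/- liver, in log2. At the other probe it was lower by 1.11 in Pparα-/- liver, while in Pparα hep-/- liver the difference of -0.10 was not called (adjusted p = 0.454).

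In WT mice HFD raised Cyp4a10, Cyp4a31 and Cyp4a14 about 6-fold and left Cyp4a12a and Cyp4a12b without a call. These 3 of 5 genes rose, in a contrast where 18.7% of all tested probes were called and 8.6% were called higher. The Cyp4a10 signal was 8.58, 10.96 and 11.82 (lowest, median and highest of 8 mice) on CTRL and 9.47, 13.04 and 13.42 on HFD. On HFD 6 of 8 mice lay above every CTRL mouse and mice 1 and 2 lay among the CTRL values, so the groups overlapped. The log2 fold change was 2.50 (SE 0.57, 5.66-fold, 95% confidence interval 2.56 to 12.5, adjusted p = 0.00133).

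Cyp4a31, a close relative of Cyp4a10 in the same gene cluster, gave 10.19, 12.40 and 13.34 on CTRL and 10.89, 14.67 and 14.997 on HFD. Its change was 2.62 (SE 0.56, 6.16-fold, adjusted p = 0.000736), with the same HFD mice 1 and 2 at the bottom. Cyp4a14 gave 5.27, 5.94 and 7.15 on CTRL and 5.49, 8.39 and 9.23 on HFD, and was well above background in 4 and 6 of the 8 mice. All HFD mice except 1 and 2 exceeded the CTRL range. The change of Cyp4a14 was 2.56 (SE 0.42, 5.91-fold, interval 3.29 to 10.6, adjusted p = 2.54e-05). HFD mice 1 and 2 are among the arrays that resembled WT CTRL over all other probes, and their Cyp4a14 values were 5.49 and 5.74.

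Without the 7 arrays closest to another group, the WT changes were 3.13 for Cyp4a10, 3.27 for Cyp4a31 and 3.07 for Cyp4a14 (limma, adjusted p = 9.10e-05, 3.01e-05 and 9.28e-07). With all arrays weighted equally they were 1.78, 1.84 and 1.87, still called (adjusted p = 0.0363, 0.0330 and 0.00483). The arrays were washed in 2 batches, each holding about 4 mice of every group. Within the first batch alone the change of Cyp4a10 was 3.43 (adjusted p = 0.0109) and within the second 1.89 (adjusted p = 0.163). The Cyp4a14 change was called in both batches, at 3.17 and 2.15 (adjusted p = 0.00684 and 0.0167).

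With HFD in WT liver 0 of 8 macrophage, 0 of 8 stellate cell and 0 of 6 endothelial markers were called, where 18.7% of all probes were. White adipocyte markers did move. Of 6 white adipocyte markers 4 were bright enough to be tested, Adipoq and Plin1 not among them, and 2 rose. These were Cfd (adipsin), by 5.79, and Car3, a carbonic anhydrase bright in all groups, by 0.79 (adjusted p = 3.81e-07 and 0.0269). The mean signal of the 4 was 8.57, 9.37 and 10.2 on CTRL and 8.51, 11.3 and 11.8 on HFD. None of the 4 was called with HFD in either mutant line, and on HFD 3 of 4 were lower in Pparα-/- than in WT liver. Among hepatocyte genes, 3 of 10 pericentral markers rose and 4 of 8 periportal markers fell in WT. The part of these genes in the Cyp4a values was not tested.

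**Figure D1:**
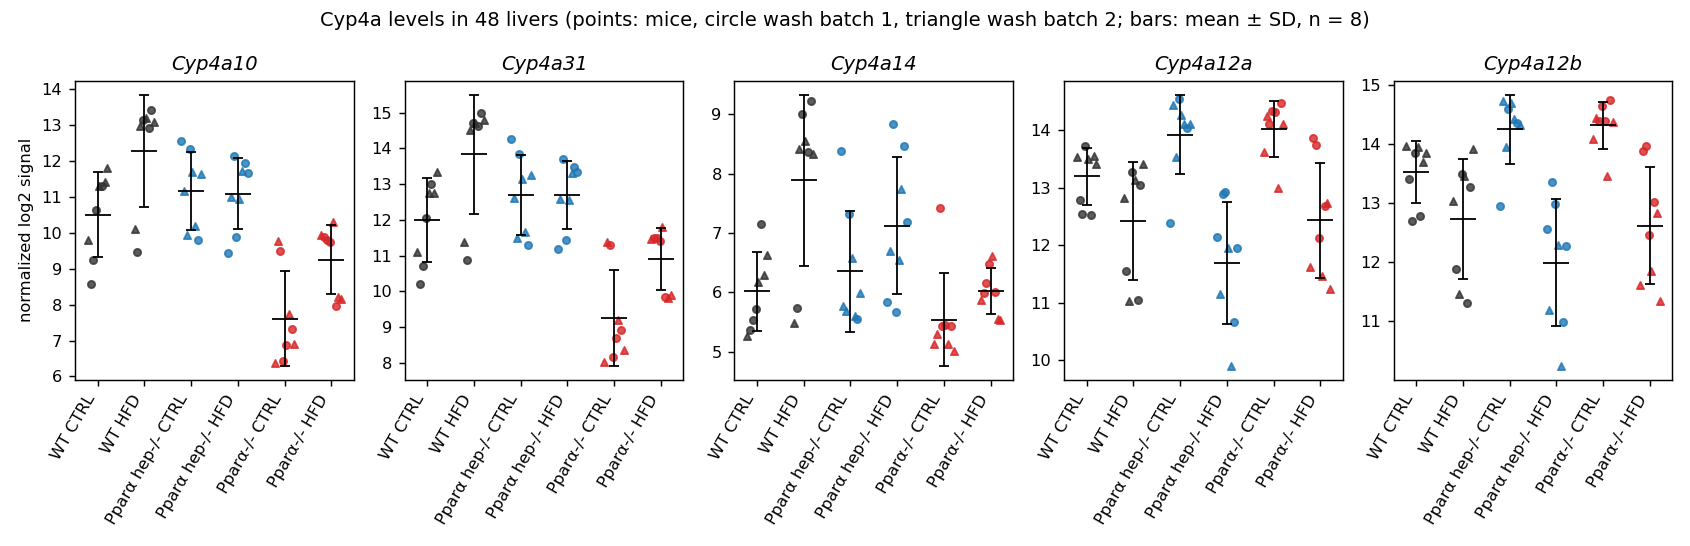
Normalised log2 signal of the 5 genes in each of the 48 mice, by genotype and diet, with circles for wash batch 1, triangles for wash batch 2 and bars for the group mean and SD. In WT on HFD, 6 of 8 mice form a high group for Cyp4a10, Cyp4a31 and Cyp4a14 and mice 1 and 2 lie at the CTRL level, and the Pparα-/- groups are the lowest for Cyp4a10 and Cyp4a31.

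The same diet gave another pattern in mice without PPARα in hepatocytes. In Pparα hep-/- liver 3 of the 5 genes were called, Cyp4a14 higher and both Cyp4a12 genes lower, against 20.2% of all probes. Cyp4a10 was 9.80, 11.41 and 12.57 on CTRL and 9.43, 11.34 and 12.15 on HFD, and the 2 ranges nearly coincide. Its change was 0.20, with a 95% interval of 0.586-fold to 2.24-fold (adjusted p = 0.813). Cyp4a31, at 11.31, 12.88 and 14.26 on CTRL and 11.19, 12.94 and 13.70 on HFD, likewise had a change of 0.27 (adjusted p = 0.737). The other probes changed by 0.19 (A_52_P6588), -0.0028 (A_55_P2092030) and 0.094 (A_55_P2024033), none of them called.

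Cyp4a14 in Pparα hep-/- liver was 5.54, 5.88 and 8.38 on CTRL and 5.68, 6.94 and 8.84 on HFD. The highest CTRL value came from mouse 1, one of the arrays closest to another group and the one with the lowest weight. The change was 1.06 (SE 0.36, 2.09-fold, adjusted p = 0.0283). This call was lost with equal weights (0.66, adjusted p = 0.538), without the filter on dim probes (1.04, adjusted p = 0.0964), in the first wash batch alone (0.84, adjusted p = 0.467) and on leaving out any of 5 mice, CTRL mice 6 and 7 and HFD mice 3, 6 and 7. With HFD in Pparα hep-/- liver 4 of 8 stellate cell, 2 of 8 macrophage and 2 of 6 endothelial markers rose and 2 of 3 kidney tubule markers fell, and their part in the Cyp4a changes was not tested.

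With HFD in Pparα-/- liver 4 of the 5 genes were called, Cyp4a10 and Cyp4a31 higher and Cyp4a12a and Cyp4a12b lower, against 24.8% of all probes. Cyp4a10 was 6.38, 7.12 and 9.76 on CTRL and 7.96, 9.78 and 10.29 on HFD. On HFD, mice 1 to 5 lay between 9.74 and 10.29 and mice 6 to 8 between 7.96 and 8.22. On CTRL, mice 2 and 3 stood at 9.76 and 9.49 and every other mouse at or below 7.73.

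The change of Cyp4a10 was 1.71 (3.27-fold, interval 1.62 to 6.61, adjusted p = 0.0103). Cyp4a31 was 8.03, 8.80 and 11.38 on CTRL and 9.82, 11.44 and 11.79 on HFD, with the same mice high and low, and changed by 1.74 (adjusted p = 0.00841). With equal weights neither was called (1.64 and 1.65, adjusted p = 0.0572 and 0.0596), and in the second wash batch alone neither was (1.01 and 1.097, adjusted p = 0.296 and 0.261). The mean of the 3 Cyp4a10 probes changed by 0.78, also without a call (adjusted p = 0.169). Cyp4a14 cleared background in 1 CTRL mouse and in all 8 HFD mice. It was 5.01, 5.37 and 7.43 on CTRL and 5.54, 5.99 and 6.61 on HFD, a change of 0.60 that was not called (adjusted p = 0.243). Another version took the background-subtracted processed signal of the scanner software and scaled each array by its 75th percentile in place of quantile normalisation. It thus differs in both signal and normalisation, and is named the processed signal below. With it the change of Cyp4a14 was 1.93 and was called (adjusted p = 0.0230). With HFD in Pparα-/- liver 7 of 8 stellate cell, 6 of 8 macrophage and 2 of 6 endothelial markers also rose, where 24.8% of all probes were called. Of 8 periportal hepatocyte markers 4 fell and 1 rose. Their part in the Cyp4a changes was not tested.

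The probes of a gene gave different changes in Pparα-/- liver, by an amount that moved with the signal and normalisation used. The 2 other Cyp4a10 probes changed by 0.49 and 0.12 with HFD (A_52_P6588 and A_55_P2092030, adjusted p = 0.395 and 0.866), and the other Cyp4a31 probe A_55_P2024033 by 0.62 (adjusted p = 0.206). With the processed signal, A_52_P6588 changed by 1.55 and A_55_P2024033 by 1.96, both called (adjusted p = 0.0489 and 0.00881). With normexp background correction, where the arrays were not normalised to each other, A_55_P2024033 was called at 0.70 (adjusted p = 0.0481). In WT liver the same 3 probes rose by 2.41, 2.25 and 2.30, close to the brightest ones. The probes called in Pparα-/- liver with the median signal are the more 3′ ones of each gene. They do not share sequence, but their signals over the 48 arrays correlated at r = 0.998, above the r = 0.902 and 0.954 of the 3′ Cyp4a10 probe with the other 2 Cyp4a10 probes. On CTRL in Pparα-/- mice, 2 of 8 arrays measured A_52_P6588 above background and 1 of 8 measured A_55_P2024033. A_55_P2092030, with the smallest change of the 3, was above background on all 8.

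Cyp4a12a and Cyp4a12b fell with HFD in both mutant lines. In Pparα hep-/- liver Cyp4a12a was 12.38, 14.11 and 14.55 on CTRL and 9.90, 11.95 and 12.93 on HFD. All 8 HFD mice lay below the CTRL mean, and CTRL mouse 1 reached into the HFD range. Its change was -2.87 (SE 0.36, 7.32-fold lower, interval 4.44 to 12.1, adjusted p = 3.35e-07). Cyp4a12b, at 12.95, 14.40 and 14.74 on CTRL and 10.24, 12.29 and 13.37 on HFD, changed by -2.83 (adjusted p = 3.95e-07).

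Pparα-/- values of Cyp4a12a were 13.001, 14.18 and 14.48 on CTRL and 11.25, 12.40 and 13.87 on HFD, a change of -1.49 (2.80-fold lower, adjusted p = 0.00310). Cyp4a12b was 13.46, 14.40 and 14.76 on CTRL and 11.34, 12.65 and 13.97 on HFD, a change of -1.62 (adjusted p = 0.00137). HFD mice 2 and 3 stayed within the CTRL range of both genes. In WT liver Cyp4a12a was 12.53, 13.46 and 13.73 on CTRL and 11.04, 12.94 and 13.41 on HFD, with 3 HFD mice below the CTRL range, mice 2, 3 and 6.

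The WT change of Cyp4a12a was -0.50, with an interval from 2.56-fold lower to 1.28-fold higher (adjusted p = 0.468). Cyp4a12b in WT was 12.70, 13.78 and 13.98 on CTRL and 11.31, 13.16 and 13.92 on HFD, and its change was -0.51 (adjusted p = 0.463). The fall of both genes in Pparα hep-/- liver was called in each wash batch alone, at -2.18 and -3.28 for Cyp4a12a (adjusted p = 0.0167 and 0.000547). The Cyp4a12a change in Pparα-/- liver was -1.16 and -1.4998 in the batches, called in neither (adjusted p = 0.126 and 0.0503).

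**Figure D2:**
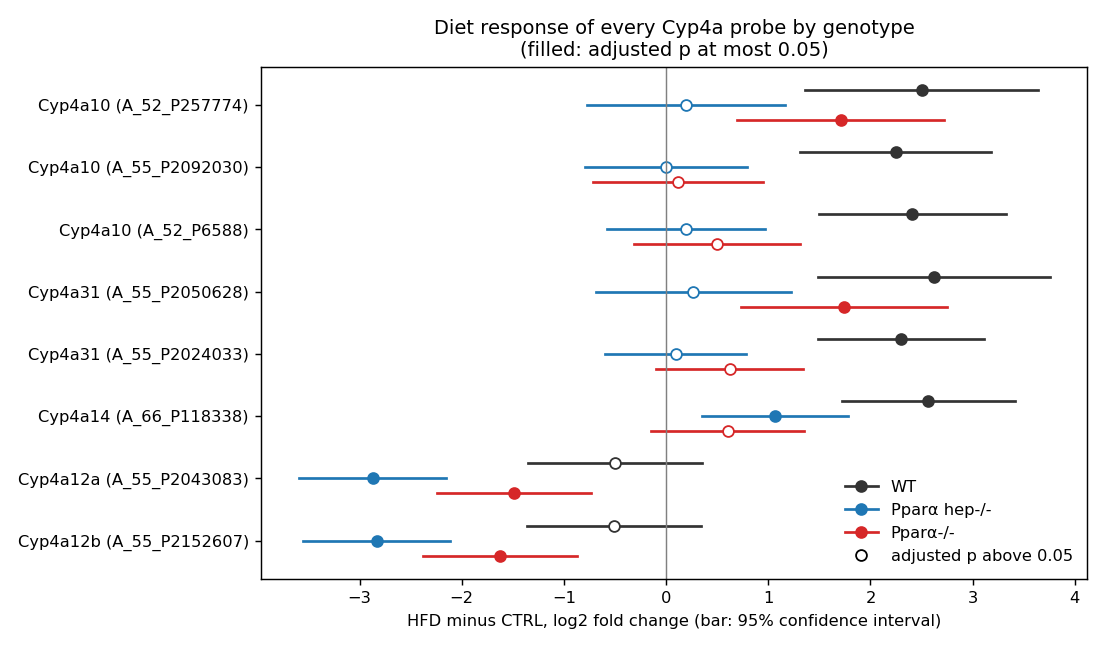
Log2 fold change of HFD over CTRL for the 8 probes of the 5 genes in the 3 genotypes (colours), with 95% confidence intervals and open symbols where the adjusted p was above 0.05. In Pparα-/- the probes of Cyp4a10 and Cyp4a31 run from 0.12 to 1.74. Cyp4a10, Cyp4a31 and Cyp4a14 stand near 2.5 in WT, and both Cyp4a12 genes lie between -1.49 and -2.87 in the 2 mutant lines.

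The difference between the diet responses was tested as an interaction. The response in WT exceeded that in Pparα hep-/- liver for 4 of the 5 genes, where 10.4% of all probes were called and 5.79% in this direction. For Cyp4a10 the responses differed by 2.30 (adjusted p = 0.0391) and for Cyp4a31 by 2.36 (adjusted p = 0.0332). The other probes differed by 2.22 (A_52_P6588), 2.25 (A_55_P2092030) and 2.20 (A_55_P2024033), each called (adjusted p = 0.0136, 0.0146 and 0.00625). For Cyp4a12a and Cyp4a12b the difference was 2.37 and 2.33 (adjusted p = 0.00516 and 0.00581), here with the steeper fall in the mutant. For Cyp4a14 it was 1.5004 and not called (adjusted p = 0.0705), but 1.98 without the 7 arrays (adjusted p = 0.00801). That setting was unplanned and drops the WT HFD mice closest to WT CTRL. With equal weights none of the 5 was called (Cyp4a10 1.82, adjusted p = 0.321; Cyp4a12a 1.51, adjusted p = 0.205). With slide as a block the Cyp4a10 and Cyp4a31 calls were lost (adjusted p = 0.0609 and 0.0579). The Cyp4a10 call was also lost on leaving out any 1 of 13 arrays, and the Cyp4a31 call any 1 of 8. In each wash batch alone none of the 5 genes was called.

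Against Pparα-/- liver the response of 1 gene, Cyp4a14, was larger in WT, by 1.96 (adjusted p = 0.0152), where 14.3% of all probes were called and 7.42% in this direction. This call was lost with the processed signal (2.15, adjusted p = 0.126), equal weights (1.39, adjusted p = 0.198), no filter on dim probes (1.72, adjusted p = 0.0879) and in each wash batch alone (2.66 and 1.56, adjusted p = 0.0997 and 0.137). Cyp4a10 and Cyp4a31 differed by 0.79 and 0.88 (adjusted p = 0.517 and 0.457). Their other probes did differ, by 1.91 for A_52_P6588, 2.12 for A_55_P2092030 and 1.68 for A_55_P2024033 (adjusted p = 0.0277, 0.0174 and 0.0302), though none of the 3 did with equal weights (adjusted p = 0.217, 0.178 and 0.283) or in either wash batch alone. With the processed signal A_52_P6588 and A_55_P2024033 did not either (1.31 and 0.93, adjusted p = 0.331 and 0.488). Between the 2 mutant lines no member's response was called different, where 3.42% of all probes were.

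On the control diet, Cyp4a10 and Cyp4a31 differed between the 2 mutant lines, and the other 3 genes were not called between them. With the processed signal and its 75th-percentile scaling Cyp4a14 was called too, at -2.08 against -0.80 (adjusted p = 0.0182 and 0.124). Its probe was above background on 1 of 8 Pparα-/- CTRL arrays. Pparα hep-/- differed from WT in 0 of the 5 genes, where 24.7% of all probes were called (limma; at an unadjusted p below 0.05, Cyp4a12a and Cyp4a12b). The estimates were 0.71 for Cyp4a10, with an interval of 0.759-fold to 3.52-fold, 0.79 for Cyp4a31 and 0.37 for Cyp4a14, and 0.71 to 0.73 at the other probes of the first 2 genes. Cyp4a12a and Cyp4a12b were higher by 0.97 and 0.92 without reaching the threshold (adjusted p = 0.0774 for Cyp4a12a).

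On CTRL in Pparα-/- liver 2 of the 5 genes were called lower than in WT, where 34.2% of all probes were called and 18.7% were lower. Cyp4a10 was lower by 7.38-fold (log2 -2.88, interval 3.31 to 16.5, adjusted p = 8.86e-05) and Cyp4a31 by 6.57-fold (log2 -2.72, adjusted p = 0.000178). The other probes gave smaller differences. They were 2.20-fold for A_52_P6588, not called (adjusted p = 0.05002) but called on leaving out any 1 of 17 arrays. They were 2.61-fold for A_55_P2092030 and 2.17-fold for A_55_P2024033 (adjusted p = 0.0193 and 0.0299). In Pparα-/- CTRL mice A_52_P6588 was well above background on 2 of 8 arrays and A_55_P2024033 on 1 of 8. The folds of these probes rest on signals near background. The groups overlapped through Pparα-/- mice 2 and 3 and the lowest WT mice. Cyp4a14, dim in both groups, differed by -0.43 (adjusted p = 0.475). In the same contrast 9 of 10 pericentral hepatocyte markers were higher and 0 lower in Pparα-/- liver, with medians of their mean signal of 12.5 in WT and 13.1 in Pparα-/-.

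Set against each other on CTRL, Pparα-/- was also lower than Pparα hep-/- liver for 2 of the 5 genes, where 25.2% of all probes were called and 13% were lower. Cyp4a10 was 12.1-fold lower (log2 -3.59, interval 5.86 to 24.8, adjusted p = 3.80e-07) and Cyp4a31 11.3-fold lower (log2 -3.50, adjusted p = 5.33e-07). The other probes were 3.63-fold (A_52_P6588), 4.26-fold (A_55_P2092030) and 3.60-fold (A_55_P2024033) lower, all called. Of these, A_52_P6588 was well above background on 2 of 8 Pparα-/- arrays and A_55_P2024033 on 1 of 8, so their folds rest on signals near background. The highest Pparα-/- value of Cyp4a10, 9.76, lay just under the lowest Pparα hep-/- value, 9.80. Such a separation of all mice occurred at 4.43% of probes. The median of the mean hepatocyte marker signal was 16.6 in both groups, and that of the 8 macrophage markers 11.1 in both. Of the pericentral markers 4 of 10 were higher and 0 lower in Pparα-/- (medians of 12.9 in Pparα hep-/- and 13.1 in Pparα-/-), and 2 of the 3 kidney tubule markers were lower (6.49 and 5.91). Their part in the Cyp4a difference was not tested.

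On HFD, Pparα hep-/- liver was lower than WT for 5 of the 5 genes, where 26.7% of all probes were called and 13.4% were lower. Cyp4a10 was 3.02-fold lower (log2 -1.59, adjusted p = 0.0145), Cyp4a31 2.97-fold lower (adjusted p = 0.0153) and Cyp4a14 2.18-fold lower (adjusted p = 0.0197). The other probes were 2.78-fold to 2.91-fold lower, all called. Cyp4a12a was 2.63-fold lower and Cyp4a12b 2.66-fold lower (adjusted p = 0.00420 and 0.00380). For Cyp4a10 the WT HFD mice 1 and 2 lay within the mutant range and every other WT HFD mouse above it. For Cyp4a31 mouse 1 lay within that range, mouse 2 at 10.89 below it and the others above it. Without weights none of the 5 was called, nor in the first wash batch alone. Cyp4a10 and Cyp4a31 were also lost without the filter on dim probes (adjusted p = 0.0768 and 0.0857) and in the second wash batch (adjusted p = 0.124 and 0.131). The Cyp4a14 call was lost as well with the processed signal (-1.43, adjusted p = 0.0752), without the wash term (-1.02, adjusted p = 0.0561), without the filter on dim probes (-0.98, adjusted p = 0.121) and in the second wash batch (-0.97, adjusted p = 0.0953). Without the 7 arrays it was -1.48 (adjusted p = 0.00112).

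Pparα-/- liver on HFD was lower than WT for 3 of the 5 genes, where 45.7% of all probes were called and 24% were lower. Cyp4a10 was 12.8-fold lower (log2 -3.67, interval 6.40 to 25.4, adjusted p = 4.45e-08), Cyp4a31 12.1-fold lower (adjusted p = 5.74e-08) and Cyp4a14 5.24-fold lower (adjusted p = 6.51e-07). The other probes were 8.30-fold (A_52_P6588), 11.4-fold (A_55_P2092030) and 6.93-fold (A_55_P2024033) lower. The calls of the 3 genes held within each wash batch and under equal weights. Cyp4a12a and Cyp4a12b differed by -0.29 and -0.45, with intervals from 2.05-fold lower to 1.37-fold higher and from 2.28-fold lower to 1.22-fold higher (adjusted p = 0.545 and 0.329). In this contrast 8 of 10 pericentral hepatocyte markers were higher and 0 lower, and 4 of 6 endothelial markers were higher and 1 lower.

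Between the mutant lines on HFD 5 of the 5 genes were called, 3 lower and 2 higher in Pparα-/-, against 30.6% of all probes. Cyp4a10 was 4.22-fold lower (adjusted p = 0.000455), Cyp4a31 4.08-fold lower (adjusted p = 0.000547) and Cyp4a14 2.40-fold lower (adjusted p = 0.00378). The other probes were 2.94-fold (A_52_P6588), 3.91-fold (A_55_P2092030) and 2.50-fold (A_55_P2024033) lower, all called. In the first wash batch alone none of the 3 genes was called (adjusted p = 0.134, 0.143 and 0.199), and Cyp4a14 was lost with equal weights (adjusted p = 0.116) and without Pparα hep-/- HFD mouse 6 (adjusted p = 0.0532). Cyp4a12a was 2.15-fold and Cyp4a12b 1.94-fold higher (adjusted p = 0.0121 and 0.0301). The Cyp4a12b call was lost with slide as a block (log2 0.87, adjusted p = 0.0578) and in the authors' table fitted without the wash term (0.90, adjusted p = 0.0523). The calls of both Cyp4a12 genes were lost with equal weights (adjusted p = 0.198 and 0.271), without the wash term in the main values (0.0664 and 0.122) and in each wash batch alone. Periportal hepatocyte markers were lower in Pparα-/- in 5 of 8 cases. Of 8 markers of stellate cells, the liver's collagen-producing cells, 2 were higher in Pparα-/- than in Pparα hep-/- liver and 0 lower. Of 8 macrophage markers 3 were higher and 0 lower. Against WT on HFD, stellate markers were higher in 7 of 8 cases in Pparα hep-/- and 8 of 8 in Pparα-/- liver. Macrophage markers were higher than in WT in 5 and 7 of 8. Of all probes 26.7% and 45.7% were called in these contrasts with WT. The mean stellate signal ran from 8.37 to 10.8 in WT, 9.74 to 10.3 in Pparα hep-/- and 9.68 to 10.6 in Pparα-/- mice on HFD, and the mean macrophage signal from 9.73 to 11.9, 10.6 to 12.0 and 11.3 to 12.1. Their part in the Cyp4a values was not tested.

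**Figure D3:**
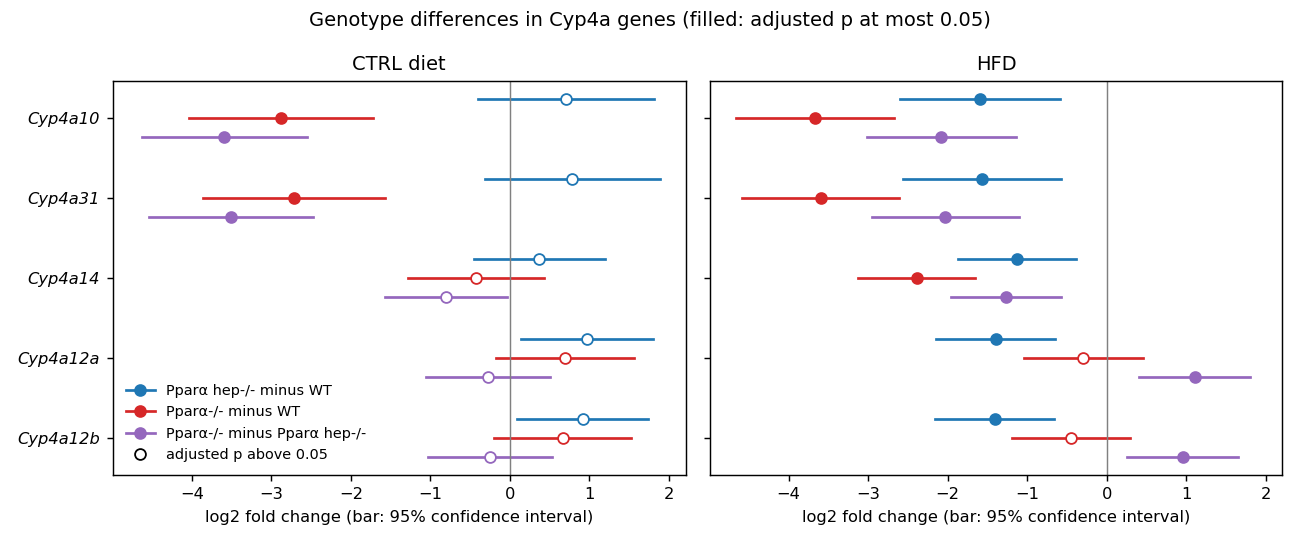
Log2 difference between genotypes for the 5 genes, each at its brightest probe, on CTRL (left) and HFD (right), with 95% confidence intervals and open symbols where the adjusted p was above 0.05. The Pparα-/- differences of Cyp4a10 and Cyp4a31 lie between -2.03 and -3.67 on both diets, while those of Pparα hep-/- against WT are below 0 on HFD only.

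Ordered by mean level, Cyp4a10 and Cyp4a31 ran from WT HFD through Pparα hep-/- CTRL, Pparα hep-/- HFD, WT CTRL and Pparα-/- HFD to Pparα-/- CTRL. Among neighbours in this order, the step from Pparα-/- HFD to Pparα-/- CTRL exceeded the larger SD of both groups for both genes (1.64 against 1.32 for Cyp4a10), and the step from WT CTRL to Pparα-/- HFD did so for Cyp4a10 (1.26 against 1.17). No neighbouring step exceeded the SD for Cyp4a14. The Cyp4a12a and Cyp4a12b order began with Pparα-/- CTRL and Pparα hep-/- CTRL and ended with Pparα hep-/- HFD. There the step from Pparα hep-/- CTRL to WT CTRL was larger than the SD (0.73 in both, against 0.69 and 0.59).

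The members fell into 2 sets by how they varied among mice of the same group. After group and batch means were removed, Cyp4a10 and Cyp4a31 deviated together over the 48 mice (r = 0.996, rho = 0.987), as did Cyp4a12a and Cyp4a12b (r = 0.980, rho = 0.961). The Cyp4a12a probe lists both Cyp4a12 transcripts, which the latter value includes. The probes that stand for Cyp4a10 and Cyp4a31 list different transcripts. Neither was compared with the transcript of the other gene, so whether they read separate genes was not tested. Cyp4a14, whose probe lists no other member, deviated with Cyp4a10 (r = 0.857, rho = 0.874) and Cyp4a31 (r = 0.868, rho = 0.885). All 4 had adjusted p = 2.50e-05 over the 10 pairs (permutation test, two-sided, 100000 resamples, raw p = 1e-05, the smallest these resamples can give).

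Without the 2 mice farthest from the median, the r of Cyp4a10 with Cyp4a14 was 0.810. It was 0.904 and 0.782 in the wash batches and 0.716 to 0.992 within single groups. It was highest in WT HFD, where mice 1 and 2 were low for both genes, and lowest in Pparα-/- HFD. The 6 pairs of a Cyp4a12 gene with Cyp4a10, Cyp4a31 or Cyp4a14 gave r from -0.148 to 0.0151, none past the threshold (permutation test, adjusted p = 0.970 to 0.996 for r). Within Pparα hep-/- HFD, the r of Cyp4a10 with Cyp4a12a was -0.394 and within WT HFD 0.232.

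**Figure D4:**
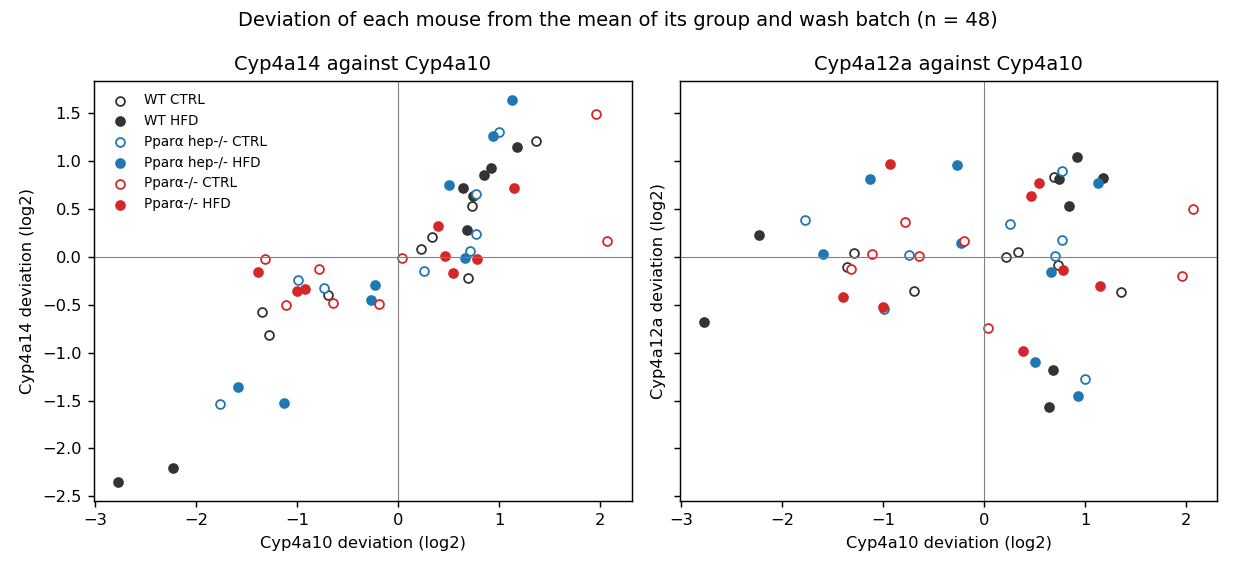
Deviation of each of the 48 mice from its group and wash batch mean (log2) for Cyp4a14 against Cyp4a10 and for Cyp4a12a against Cyp4a10, coloured by group. The first pair rises along a line (r = 0.857), and the second shows no slope (r = 0.0151).

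Over all 48 arrays, with group differences included, the genes whose signal was most like a member's differed between the 2 sets. Crat (carnitine acetyltransferase) came first for Cyp4a10 (r = 0.893), Cyp4a31 (r = 0.905) and Cyp4a14 (r = 0.835). Also close to Cyp4a10 were Hsdl2 (0.828), Ech1, a dienoyl-CoA isomerase (0.821), and Pgm2 (0.810). For Cyp4a31 they were Hsdl2 (0.822), B230114P17Rik (0.819) and Ech1 (0.816). For Cyp4a14 they were Xrcc3 (0.793), Suox (0.791), Pex11a, a peroxisome division factor (0.773), and 4930525G20Rik (0.771). These values are descriptions over arrays that share group means.

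Ugt2b1, a glucuronosyltransferase, was most like Cyp4a12a (r = 0.761) and Cyp4a12b (r = 0.752). Upf3b (0.718) and Ier3ip1 (0.706) followed for Cyp4a12a, with Lmbr1l and Cyp4f14 both at 0.705. For Cyp4a12b they were Upf3b (0.726), Gm10765 and Ier3ip1 (both 0.711) and Srd5a1, a steroid 5α-reductase (0.706). Between the 2 sets of members r was negative on this scale, from -0.372 to -0.243. Of other genes within 200 kb of the outermost member probes, Cyp4b1 and Efcab14 were tested. Cyp4b1 was called in no contrast, and Efcab14 was lower in Pparα-/- than in WT on HFD by 0.19 (log2 -0.19, adjusted p = 0.00768) and than in Pparα hep-/- on HFD (log2 -0.31, adjusted p = 2.48e-05).

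The enzymes that act before and after the Cyp4a step were taken as a list of 21 genes, from the electron donors through alcohol and aldehyde dehydrogenases to peroxisomal transport and β-oxidation, and all were tested. With HFD in WT 14 rose and 0 fell, with a median of 0.41 against -0.01 over all probes, of which 18.7% were called. Acaa1a, a peroxisomal thiolase, rose by 0.78, Crot (carnitine octanoyltransferase) by 1.03, Hsd17b4, the peroxisomal bifunctional enzyme, by 0.57, and Acot8, a peroxisomal thioesterase, by 0.42 (adjusted p from 6.32e-07 to 5.86e-05). In Pparα hep-/- liver 7 rose and 4 fell, against 20.2% of all probes called, among them Aldh3a2, the fatty aldehyde dehydrogenase, up by 0.98, and Cyb5r3 at -0.51. Pparα-/- liver had 7 that rose and 0 that fell, where 24.8% of all probes were called, with Acaa1a up by 0.64 and Aldh3a2 by 1.19.

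Against WT on HFD, 8 of the 21 were lower and 0 higher in Pparα hep-/- liver and 10 lower and 1 higher in Pparα-/- liver. Of all probes 26.7% and 45.7% were called in these contrasts, and 13.4% and 24% were lower. The share of 11 of 21 called in either direction in Pparα-/- liver was near that of all probes. The share of 10 of 21 lower was above the 24%. The differences in Pparα-/- included -1.05 for Abcd3, a peroxisomal transporter, and -0.995 for Acot8. Abcd2, another peroxisomal transporter, was called lower too, but was well above background on 0 of 8 Pparα-/- HFD arrays against 7 of 8 in WT. The other Cyp4 genes, 8 of 15 tested, did not move with Cyp4a10 and Cyp4a14 in WT, where 0 were called with HFD (limma, smallest adjusted p = 0.139) against 18.7% of all probes. In Pparα hep-/- liver 3 rose and 3 fell, against 20.2% of all probes called, with Cyp4f18, which acts on leukotrienes, at 0.94 and Cyp4f14 at -0.63. Pparα-/- liver had 1 that rose and 4 that fell, against 24.8%, with Cyp4f18 at 0.97 and Cyp4f17 at -0.40.

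Of 20 other PPARα target genes, 19 were tested. HFD raised 14 in WT mice, 11 in Pparα hep-/- and 12 in whole-body Pparα-/- mice and lowered 0 in each, with medians of 0.55, 0.52 and 0.71, where 18.7%, 20.2% and 24.8% of all probes were called in either direction. In WT the pantetheinase gene Vnn1 rose by 2.39 and Slc25a20, the mitochondrial carnitine carrier, by 0.78. Among those that rose in Pparα-/- liver, Cpt1a did so by 0.92 and Fgf21 by 2.53, the latter from a CTRL group with 1 of 8 arrays well above background. On the level, 13 of 19 were lower than WT in Pparα-/- liver on each diet, with 3 higher on CTRL and 0 on HFD. Of all probes 18.7% were lower on CTRL and 24% on HFD. Vnn1 was at -3.57 on CTRL, where 3 of 8 Pparα-/- arrays were well above background, and at -4.70 on HFD. In Pparα hep-/- liver 9 of 19 were lower than WT on each diet, with 4 higher on CTRL and 1 on HFD. Of all probes 24.7% and 26.7% were called there. Cyp4a10 and Cyp4a31 were likewise lower in Pparα-/- than in WT on both diets. With the median signal they were called higher with HFD there at their brightest probes only. These calls were lost with equal weights and in the second wash batch alone.

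Because Cyp4a12 is male-biased, 16 other male-biased liver genes were counted. With HFD 6 fell and 0 rose in Pparα hep-/- liver, and 13 fell and 0 rose in Pparα-/- liver, while in WT 3 fell and 1 rose. Of all probes 20.2%, 24.8% and 18.7% were called in these contrasts, and the WT share was near the latter. Hsd3b5, a steroid-metabolising enzyme, changed by -3.60 in the weighted fit in Pparα hep-/- liver, where it was 6.60, 14.1 and 14.8 on CTRL and 7.15, 11.8 and 14.05 on HFD, with unweighted means of 13.2 and 11.3. The lowest CTRL value was that of mouse 1, the array with the lowest weight. The major urinary protein gene Mup20 changed by -0.98 in Pparα-/- liver. Ugt2b1, also on this list, changed by -0.61 in WT liver, by -0.87 without PPARα in hepatocytes and by -1.04 without it in the whole body, each called. Of 13 female-biased genes tested, 2 rose and 2 fell in WT liver, 3 rose and 1 fell in Pparα hep-/- liver, and 3 rose and 2 fell in Pparα-/- liver, where 18.7%, 20.2% and 24.8% of all probes were called.

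Clock genes differed between groups and between mice. The median signal of Arntl, a core clock activator, was 6.36 in WT CTRL and 7.39 in WT HFD, 8.04 and 8.25 in Pparα hep-/- CTRL and HFD, and 6.65 and 6.72 in Pparα-/- CTRL and HFD. Dbp, a clock output gene, had medians of 15.17 and 14.74, 14.58 and 13.79, and 15.31 and 15.14 in the same order. The Pparα hep-/- groups were thus the highest for Arntl and the lowest for Dbp on each diet.

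Single Pparα-/- mice also stood apart. On CTRL, mouse 3 had an Arntl signal of 10.2 where the others of its group lay between 6.17 and 7.05, and a Dbp signal of 11.7 where the others were at 15.04 or above. This mouse had the highest Cyp4a14 signal of its group, 7.43, and one of the 2 highest Cyp4a10 signals. On HFD, mouse 4 had the highest Arntl signal of its group, 9.08, and the lowest Dbp signal, 13.15. The part of the clock genes in the Cyp4a values, by group or by mouse, was not tested.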

How the data were processed

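Per the labels, livers of 48 mice were hybridised to 1-colour Agilent arrays, and the deposited scanner files hold spot intensity from Feature Extraction 10.10.1.1. The authors' deposited log2 table of normalised values, fitted without the wash term, served as an alternative. From the median intensity of each spot, log2 values were taken, outlier spots left out, spots of a probe averaged, probes kept if 4 or more of the 8 arrays in any group had them well above background, and arrays quantile normalised. limma 3.58.1 (R 4.3.3) fitted 6 group means and the wash batch with array weights, with Benjamini-Hochberg adjustment within each of 12 contrasts. The number of arrays limits the precision. The fit was checked on simulated arrays.

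The members and gene lists were chosen with earlier results of these data known. The text names every member probe, the 5 genes most like each member, tested genes within 200 kb, and up to 4 genes of smallest adjusted p per list and contrast, of the lists for omega oxidation, other Cyp4 genes, PPARα targets, and male-biased and female-biased genes, beside markers of hepatocytes (general, pericentral and periportal), kidney tubule, macrophages, stellate cells, endothelial cells and white adipocytes, whose levels are means of log2 signals. One gene among those most like Cyp4a10 and Cyp4a31 is not reported here. Arntl and Dbp were named after their values were seen. Gene lists were counted on this one scale only.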

Additional observations from a re-analysis of the deposited data

Results flagged for a closer look

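A single mouse stood apart from the others of its group in 3 of 30 groups of 8 values, where chance gives about 1 in 20. Pparα hep-/- CTRL mouse 1 had a Cyp4a12a signal of 12.38, below the next at 13.54, and a Cyp4a12b signal of 12.95, below the next at 13.95. It is also the array with the lowest weight and the one closest to Pparα hep-/- HFD over all other probes. Pparα-/- CTRL mouse 3 had a Cyp4a14 signal of 7.43, above the next at 5.45.

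The response to HFD differed between genotypes by the interaction term in limma for 5 values. Between WT and Pparα hep-/- liver the difference was 2.30 for Cyp4a10, 2.36 for Cyp4a31, 2.37 for Cyp4a12a and 2.33 for Cyp4a12b. Between WT and Pparα-/- liver it was 1.96 for Cyp4a14.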

How the results depend on the processing

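The count of the 5 genes called stayed within 1.5 times its value under every alternative run for HFD in Pparα hep-/- liver (2 to 3 when single arrays were left out), for Pparα hep-/- against WT on CTRL, for Pparα-/- against Pparα hep-/- on CTRL and for Pparα-/- against WT on HFD. With HFD in WT it was 3, but 1 in wash batch 2 alone. With HFD in Pparα-/- it was 4, but 2 without array weights, 2 in wash batch 1 and 1 in wash batch 2. For Pparα-/- against WT on CTRL it was 2, but 1 in wash batch 1. For Pparα hep-/- against WT on HFD it was 5, but 0 without array weights, 2 without the filter on dim probes, 0 in wash batch 1, 2 in wash batch 2, and 2 to 5 with single arrays left out (2 without WT HFD mouse 7, 3 without WT HFD mouse 8 or Pparα hep-/- HFD mouse 6). For Pparα-/- against Pparα hep-/- on HFD it was 5, but 2 without array weights, 3 without the wash term, 0 in wash batch 1, 3 in wash batch 2 and 2 to 5 with single arrays left out (2 without Pparα hep-/- HFD mouse 6, 3 without mouse 7). The WT minus Pparα hep-/- response had 4, but 2 with normexp background correction, 0 without array weights, 2 without the wash term, 2 with slide as a block, 2 with the replicate block, 2 without the dim-probe filter, 0 in each wash batch alone and 2 to 5 with single arrays left out, where 18 of the 48 arrays changed it. It was 2 without any one of WT CTRL mice 1, 2 and 3, WT HFD mice 7 and 8, and, of the Pparα hep-/- mice, numbers 4 and 8 on CTRL and 1 on HFD. The WT minus Pparα-/- response had 1, but 0 with the processed signal, without array weights, without the dim-probe filter and in each wash batch alone. The Pparα hep-/- minus Pparα-/- response had 0, but 4 with normexp, where the arrays were not normalised to each other. The causes were not tested, except that a wash batch alone holds fewer arrays.

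Replicate numbers did not pair the mice. Over 120 pairs of arrays with the same number the correlation of deviations was -0.449 to 0.694 (median 0.0217), 34 were above 0.1, and 10 of 48 arrays correlated best with their own number. The replicate block moved the count of members by over 1.5 times for the WT minus Pparα hep-/- response only. It also ended the Cyp4a12b call between the mutant lines on HFD (0.87, adjusted p = 0.0583).

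The normexp alternative used the background-corrected mean signal and did not normalise the arrays to each other. Differences in brightness between whole arrays are thus not removed from it. Under normexp the median of all probes was 0.24 with HFD in Pparα-/-, 0.22 for Pparα-/- against WT on HFD, 0.12 against Pparα hep-/- on HFD, and -0.26 and -0.23 in the responses against Pparα-/-, where it was between -0.027 and 0.0027 as reported. Under it 97.5% of the probes called with HFD in Pparα-/- were higher, against 49.3%, and 90.1% for Pparα-/- against WT on HFD, against 47.6%. Called probes over the whole array ran over the alternatives from 666 to 7147 for HFD in WT (6248 as reported), 1270 to 8227 in Pparα hep-/- (6735) and 3193 to 19826 in Pparα-/- (8273). They ran from 3049 to 8686 (8241), 6348 to 11511 (11409) and 2546 to 10134 (8401) for the 3 genotype contrasts on CTRL, from 2305 to 11685 (8893), 8443 to 20172 (15241) and 4992 to 12585 (10188) on HFD, and from 166 to 5679 (3472), 892 to 14836 (4781) and 21 to 11922 (1139) for the 3 response differences.

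The values that changed sign were all uncalled as reported. Without array weights, HFD in Pparα hep-/- gave -0.040 for Cyp4a10, -0.019 for its probe A_52_P6588 and -0.099 for Cyp4a31 probe A_55_P2024033 (-0.014 in wash batch 1). Cyp4a10 probe A_55_P2092030 gave 0.34 there with normexp, 0.039 with the authors' table, 0.018 without the wash term, 0.018 with slide as a block, 0.060 with the replicate block and 0.20 in wash batch 2. With HFD in Pparα-/-, A_52_P6588 gave -0.0066 in wash batch 2, and A_55_P2092030 -0.024 with the replicate block and -0.22 in wash batch 2. Pparα hep-/- against WT on CTRL gave -0.0026 for Cyp4a10 and -0.090 for Cyp4a14 in wash batch 2, and Pparα-/- against WT on CTRL 0.016 for Cyp4a14 in wash batch 1. Pparα-/- against Pparα hep-/- on CTRL gave 0.067 for Cyp4a12a and 0.034 for Cyp4a12b without array weights and 0.19 and 0.21 in wash batch 1. Pparα-/- against WT on HFD gave 0.019 for Cyp4a12a without array weights and 0.41 for Cyp4a12a and 0.40 for Cyp4a12b in wash batch 1. With normexp the WT minus Pparα-/- response was -0.011 for Cyp4a10 and -0.13 for Cyp4a31. The Pparα hep-/- minus Pparα-/- response was 0.32 for A_52_P6588 and 0.42 for A_55_P2092030 in wash batch 2, 0.084 for A_55_P2092030 with the replicate block, and -0.24 for Cyp4a14 with the processed signal.

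With single arrays left out, the HFD change in Pparα hep-/- ran from -0.048 to 0.48 for Cyp4a10, -0.27 to 0.26 for A_55_P2092030 and -0.080 to 0.32 for A_55_P2024033, the change in Pparα-/- from -0.055 to 0.41 for A_55_P2092030, and its Pparα hep-/- minus Pparα-/- response from -0.39 to 0.13. The r of Cyp4a10 with Cyp4a12a ran from -0.0647 to 0.0757, with Cyp4a12b from -0.0723 to 0.0610, and of Cyp4a31 with them from -0.0861 to 0.0649 and from -0.0883 to 0.0471. The r of Cyp4a10 was -0.00032 with Cyp4a12a and -0.00236 with Cyp4a12b with the processed signal, and -0.0431 and -0.0283 in wash batch 2. The r of Cyp4a31 was 0.0182 and 0.0219 with normexp and 0.0245 and 0.00202 in wash batch 1.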
